A study of Mus musculus with 12 samples.

Results

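The genes described here encode the nuclear parts of the mitochondrial respiratory chain and of ATP synthase. They were taken by symbol from the array annotation: every gene whose only symbol began with Nduf, Uqcr, Sdha, Sdhb, Sdhc, Sdhd, Cox4 to Cox8 or Atp5. This gave 94 of the 18193 genes measured, with 44 in complex I, 8 in complex II, 8 in complex III, 17 in complex IV and 17 in complex V, which is ATP synthase itself. One probe set stood for each gene, the one with the highest mean log2 value over all arrays. The symbol rule also took in 8 Ndufaf and 4 Sdhaf assembly factors, the tissue-restricted isoforms of complex IV, and Ndufa4 and Ndufa4l2, whose prefix is that of complex I although the Ndufa4 protein is now placed with complex IV.

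Expression was measured on 12 arrays of total RNA from whole lung or whole liver. The mice were females of the immunodeficient NOD/SCID strain, aged 8 to 10 weeks at the start. The 4 groups were lung of virgin mice, lung of pregnant mice at day 16, liver of virgin mice and liver of pregnant mice at day 16, with 3 arrays each. An array held a pool of 2 mice, and the labels do not say whether lung and liver pools of the same number came from the same animals. The p-values therefore measure the spread between pools, and in whole tissue fewer cells of a type and less RNA per cell cannot be told apart.

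Complex I takes electrons from NADH and complex II takes them from succinate. Both hand them through coenzyme Q to complex III, and cytochrome c carries them on to complex IV, which reduces oxygen. Complexes I, III and IV pump protons across the inner membrane, and ATP synthase lets the protons return through its membrane ring while its soluble head makes ATP. Hepatocytes are rich in mitochondria, and several complex IV subunits exist as a widely expressed form and a form typical of heart and skeletal muscle, lung or testis.

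The labelled tissues were borne out by their markers. The mean log2 value of 9 hepatocyte markers lay between 12.68 and 12.73 on the liver arrays and between 3.90 and 4.41 on the lung arrays, and that of 9 lung epithelium markers between 12.40 and 12.49 in lung and between 4.39 and 4.61 in liver. Both liver arrays of pool 3 carried almost no signal for the spiked-in poly-A control transcripts, with mean log2 values of 4.68 (virgin) and 5.01 (pregnant), while all other arrays lay between 10.78 and 11.28. Liver changes are therefore also given within pools 1 and 2 and within pool 3. The difference between 3′ and 5′ probe sets of Gapdh, a measure of RNA integrity, came to 0.46 ± 0.18 for virgin liver, 0.56 ± 0.12 for pregnant liver, 0.48 ± 0.21 for virgin lung and 0.44 ± 0.13 for pregnant lung (log2, SD, n = 3).

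Promoter windows from RefSeq (build GRCm38.p6), running from 250 bases before to 50 bases after the transcript start, were found for 78 of the 94 genes. They were searched on both strands for 5 motifs that are known from promoters of mitochondrial genes. Of the 78 genes 5 had more than 1 window, and a gene was counted once if any of its windows held the motif. The palindromic NRF1-type motif was found for 19 of 78 genes (24.4%), against 8.63% of the 14369 array genes with a window. The ETS-type motif CCGGAAG was found for 22 (28.2%, against 15.0%), the ERR-type motif AAGGTCA for 8 (10.3%, against 4.61%) and the YY1-type motif AAGATGGC for 10 (12.8%, against 4.09%). The GC box GGGCGG was found for 39 of 78, against 57.5%. The ETS-type motif ends with AAG, with which the ERR-type and YY1-type motifs begin, so such matches can share bases. A match describes the letters of a window and does not show that a factor binds there. Windows were found for 15 genes called lower in pregnant liver and 63 not called there. Their shares were 26.7% and 23.8% for the NRF1-type motif and 26.7% and 28.6% for the ETS-type motif. For the ERR-type motif they were 6.67% and 11.1%, for the YY1-type motif 13.3% and 12.7% and for the GC box 46.7% and 50.8%. These shares were not compared by a test. The following 4 windows belong to genes called lower in pregnant than in virgin liver, whose values follow. They are printed on the strand of the gene, with motif matches in capitals and all other bases in lower case.
Ndufs7, chr10:80249199-80249498, plus strand, YY1-type match: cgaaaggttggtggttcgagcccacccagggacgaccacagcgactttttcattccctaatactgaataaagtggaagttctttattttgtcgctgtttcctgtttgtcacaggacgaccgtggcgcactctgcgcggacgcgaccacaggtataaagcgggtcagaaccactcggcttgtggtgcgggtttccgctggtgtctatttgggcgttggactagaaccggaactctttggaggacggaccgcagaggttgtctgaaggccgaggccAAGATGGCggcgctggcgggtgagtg
Sdhd, chr9:50603800-50604099, minus strand, in order NRF1-type, ETS-type, GC box and ERR-type matches, the ETS-type and ERR-type ones on the opposite strand: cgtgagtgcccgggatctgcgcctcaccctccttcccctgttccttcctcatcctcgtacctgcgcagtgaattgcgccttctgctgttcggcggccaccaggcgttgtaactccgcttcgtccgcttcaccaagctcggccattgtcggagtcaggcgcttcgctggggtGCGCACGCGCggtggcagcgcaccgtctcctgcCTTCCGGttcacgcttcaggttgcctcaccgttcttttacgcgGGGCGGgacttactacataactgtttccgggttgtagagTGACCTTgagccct
Cox7a2, chr9:79759804-79760103, minus strand, GC box: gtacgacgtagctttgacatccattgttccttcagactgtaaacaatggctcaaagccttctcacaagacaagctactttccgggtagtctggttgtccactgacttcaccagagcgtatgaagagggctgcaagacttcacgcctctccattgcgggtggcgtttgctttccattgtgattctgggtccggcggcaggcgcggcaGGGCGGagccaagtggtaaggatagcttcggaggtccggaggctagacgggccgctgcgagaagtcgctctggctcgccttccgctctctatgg
Cox7a1, chr7:30183921-30184220, plus strand, no match: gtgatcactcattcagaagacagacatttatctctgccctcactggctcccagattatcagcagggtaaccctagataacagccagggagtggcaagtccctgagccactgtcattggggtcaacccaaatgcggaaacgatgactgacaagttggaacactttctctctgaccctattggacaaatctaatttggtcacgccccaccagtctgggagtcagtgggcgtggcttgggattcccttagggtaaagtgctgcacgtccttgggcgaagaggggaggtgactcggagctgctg

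In liver, the comparison of day 16 of pregnancy with the virgin state gave at least 1 called fall in each complex and no called rise. Of the 94 genes 19 fell and 0 rose (limma, adjusted p under 0.05), which is 20.2%, while 7.62% of all genes fell, 6.02% rose and 13.6% were called in either direction. By complex the share that fell was 20.5% (I), 12.5% (II, 1 gene), 25% (III, 2 genes), 29.4% (IV) and 11.8% (V, 2 genes). The falls were small: apart from Cox7a1, the log2 change of the 19 genes lay between -0.57 and -0.31. The 94 genes had a median change of -0.20 against -0.01 for all genes, and 77 of 94 were below 0 against 51.7% of all genes. In 54 of 94 every pregnant pool lay below every virgin pool, against 15.3% of all genes, and in 5 every pregnant pool lay above, against 12.7%. Among genes with a mean log2 value of at least 10, a cutoff added after the data were seen, 15 of 64 respiratory genes (23.4%) fell and 0 rose. Of all 877 such genes 127 fell (14.5%) and 89 rose. Values below 0 were found for 89.1% of these respiratory genes and 61% of all such genes. The median changes were -0.215 and -0.059.

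The size of the count depended on single arrays. Without virgin pool 1 it was 10 (10.6% of the 94 genes, while 5.86% of all genes fell and 10.4% were called in either direction). Without virgin pool 2 it was 7 (7.45%, against 5.63% and 10.3%). Without pregnant pool 1 or pregnant pool 2 it was 9 (9.57%), against 5.80% and 5.88% of all genes that fell and 11.1% and 10.9% called in either direction. In these 4 fits the share of respiratory genes called was close to or below that of all genes called in either direction, and above that of all genes called lower; these differences were not tested. Under the other settings at the same threshold the count lay between 7 and 36. Of all 94 genes 83 were below 0 within pools 1 and 2 and 65 within pool 3. The median change over the 94 genes was -0.23 within pools 1 and 2 and -0.11 within pool 3. Hepatocyte markers had a median change of 0.00, with 1 of 9 (Ahsg) called higher. Neutrophil markers had a median change of 1.10 with 3 of 6 called higher, their mean log2 value being 5.17 to 5.39 in virgin and 6.16 to 6.53 in pregnant liver. The mean of 7 pancreas markers was lower in pregnant liver, at 5.15, 4.97 and 5.24 against 5.26, 5.31 and 5.51 in virgin liver, with 2 called lower (Cela1 by -1.35 and Cela2a by -0.87) and 1 higher (Cpa1, 0.39). The median change of these 7 markers was 0.01, and 4 of them were above 0. Of 5 erythroid markers 1 was called higher (Alas2, 1.16) and 1 lower (Epb42, -0.56). The part of neutrophil, pancreas or erythroid RNA in the liver changes was not tested.

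**Figure D1:**
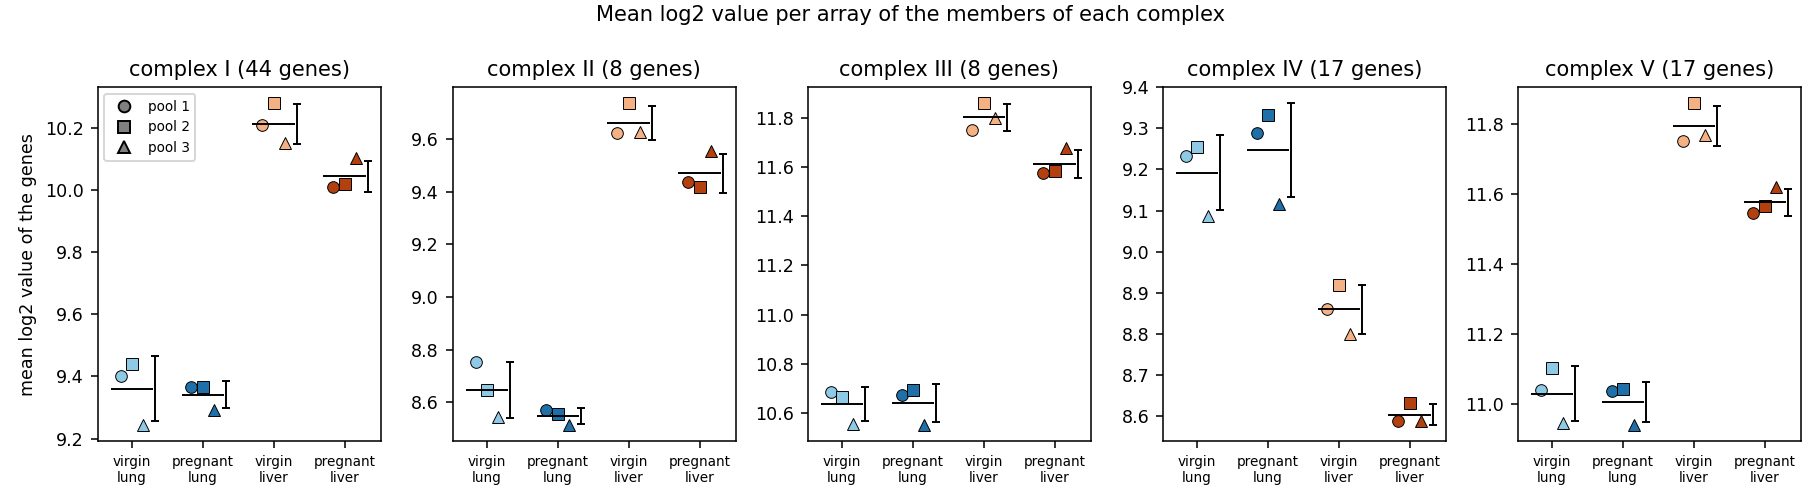
Mean log2 value of the genes of each complex on each array (points, marked by pool), with the group mean (line) and SD (bar) of 3 pools; the vertical axes differ between panels. In all 5 complexes the pregnant liver arrays lie below the virgin liver arrays, and the lung groups overlap.

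Averaged over all 94 genes, the virgin liver arrays had mean log2 values of 10.33, 10.41 and 10.29 and the pregnant liver arrays 10.12, 10.13 and 10.19. The groups did not overlap. In lung the corresponding values were 9.72, 9.74 and 9.58 (virgin) and 9.70, 9.71 and 9.60 (pregnant), and these groups did overlap.

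Complex I gave 9 of the 19 falls among its 44 genes, with a median change of -0.19 (-0.22 within pools 1 and 2 and -0.06 within pool 3). The flavin and the iron-sulphur clusters sit in core subunits, though not every core subunit holds one, and 2 of 6 core subunits fell. Ndufs7, which holds the last cluster before coenzyme Q, had log2 values of 10.95, 10.94 and 10.89 in virgin and 10.34, 10.48 and 10.25 in pregnant liver. The pregnant pools all lay well below the virgin ones, a 1.48-fold fall (log2 change -0.57 ± 0.09 SE, adjusted p = 0.000516). Its second probe set gave -0.68 (adjusted p = 0.000131, among all probe sets). Ndufs1, the largest core subunit, went from 10.32, 10.16 and 10.21 to 9.91, 9.90 and 9.88, a change of -0.34 ± 0.10 (SE, adjusted p = 0.031). This call was lost without any 1 of 5 liver arrays, virgin pools 1 and 3 and all 3 pregnant pools, with an adjusted p of up to 0.108 in limma (without virgin pool 1). The other 4 core subunits were lower without passing the test: Ndufv2 by -0.27 (adjusted p = 0.087), Ndufs3 by -0.17, Ndufv1, which holds the flavin, by -0.16, and Ndufs8 by -0.03.

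Accessory subunits surround the core of complex I, and 6 of 28 fell, with 22 below 0. Ndufa5 went from 10.08, 10.04 and 9.78 in virgin to 9.41, 9.53 and 9.56 in pregnant liver (-0.46 ± 0.11 SE, adjusted p = 0.015). Ndufa12 went from 11.00, 11.01 and 10.96 to 10.52, 10.66 and 10.71 (-0.36 ± 0.10 SE, adjusted p = 0.029). Both groups of pools were separate for each gene. Ndufb9 (-0.35), Ndufb8 (-0.34), Ndufa6 (-0.34) and Ndufb3 (-0.32) also fell, with adjusted p between 0.0147 and 0.0366. Of 12 fits that left out 1 array, the call was kept in 11 for Ndufb9, 8 for Ndufb8, 7 for Ndufa6 and 4 for Ndufb3. For Ndufa5 it was kept in 9 and for Ndufa12 in 7.

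Assembly factors build the complexes without staying in them. Of the 8 Ndufaf genes 1 fell, and of the 4 Sdhaf genes 0 were called. Ndufaf3, an early factor of complex I assembly, had log2 values of 8.54, 8.61 and 8.58 in virgin liver and 7.95, 8.17 and 7.97 in pregnant liver. All pregnant pools were lower, a 1.46-fold fall (-0.54 ± 0.09 SE, adjusted p = 0.000834). Of the 12 assembly factors 6 were below 0. The 72 structural subunits outside the tissue-restricted isoforms gave 17 falls, 65 values below 0 and a median change of -0.21. Whether assembly factors and structural subunits differed was not tested.

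Complex II is also an enzyme of the citric acid cycle, and it has 4 subunits, all nuclear. Sdhd, one of its membrane anchors, had log2 values of 11.04, 11.39 and 11.17 in virgin and 10.78, 10.68 and 10.77 in pregnant liver. The groups did not overlap and the gene fell 1.37-fold (-0.46 ± 0.10 SE, adjusted p = 0.00796). Sdhc, the other anchor, was at -0.40 (adjusted p = 0.124), the flavin subunit Sdha at -0.31 (0.0925) and the iron-sulphur subunit Sdhb at -0.26 (0.0778), none of them past the threshold.

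In complex III 2 of 8 genes fell, both small subunits. Uqcr10 went from 11.33, 11.42 and 11.21 to 10.89, 10.97 and 11.10 (-0.33 ± 0.10 SE, adjusted p = 0.034), and Uqcrh, the hinge protein, which helps cytochrome c to dock, changed by -0.33 ± 0.10 (SE, adjusted p = 0.035). The Rieske iron-sulphur protein Uqcrfs1 was at -0.25 (0.0763), and the core proteins Uqcrc1 and Uqcrc2 were at -0.31 (0.0543) and -0.24 (0.0716). These 3 did not pass the test, but a second bright probe set of Uqcrc2 was called lower (-0.37, adjusted p = 0.0232 among all probe sets).

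In complex IV 5 of 17 genes fell. Cox7a2, the widely expressed form of subunit VIIa, had log2 values of 12.68, 12.73 and 12.60 in virgin and 12.11, 12.17 and 12.14 in pregnant liver. The groups stood far apart relative to their spread, and the gene fell 1.44-fold (-0.53 ± 0.09 SE, adjusted p = 0.000867). Its second probe set, also bright, was at -0.21 (adjusted p = 0.255), so the size differed between probe sets. Cox4i1, a regulatory subunit, went from 12.43, 12.66 and 12.48 to 12.15, 12.11 and 12.23 (-0.36 ± 0.09 SE, adjusted p = 0.017). Cox6b1 (-0.32, adjusted p = 0.032) and Cox8a (-0.31, adjusted p = 0.048) fell as well, and the call of Cox8a was lost in 11 of 12 fits that left out 1 array. Cox5a (-0.12) and Cox5b (-0.25, adjusted p = 0.078) did not pass the test. A second probe set of Cox5a, of nearly the same brightness, was called lower (-0.37, adjusted p = 0.0306 among all probe sets), and a dimmer one was at -0.09.

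Cox7a1, the heart and muscle form of the same subunit, had the only change of at least 1 log2 unit. It had log2 values of 4.86, 5.58 and 4.82 in virgin liver and 3.16, 3.61 and 3.53 in pregnant liver, a 3.15-fold fall (-1.65 ± 0.30 SE, adjusted p = 0.00188). The virgin pools lay just above the median of all probe sets, 4.53, and the pregnant pools below it, where the array may no longer resolve levels. Heart muscle markers were low in both groups, with a mean log2 value of 3.70 to 3.89 in virgin and 3.87 to 3.93 in pregnant liver. The other muscle forms, Cox6a2 (0.06) and Cox8b (-0.32, adjusted p = 0.377), were not called in liver.

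All 17 genes of ATP synthase were below 0 in liver, between -0.39 and -0.10, and 2 of them fell. Atp5o, part of the stalk that holds the head in place, went from 11.05, 11.26 and 11.00 to 10.71, 10.64 and 10.78 (-0.39 ± 0.09 SE, adjusted p = 0.013). Atp5a1, the alpha subunit of the head, went from 12.02, 11.96 and 12.05 to 11.60, 11.65 and 11.68 (-0.37 ± 0.08 SE, adjusted p = 0.01), with -0.22 from its second bright probe set, which was not called. The catalytic beta subunit Atp5b was at -0.26 (adjusted p = 0.0521). Atp5pb was at -0.27 and not called, but its second bright probe set was called lower (-0.47, adjusted p = 0.00959 among all probe sets). Of the genes for the membrane ring, which encode one mature protein, Atp5g1 was at -0.38 (0.0573), Atp5g2 at -0.12 and Atp5g3 at -0.10, all short of the threshold.

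**Figure D2:**
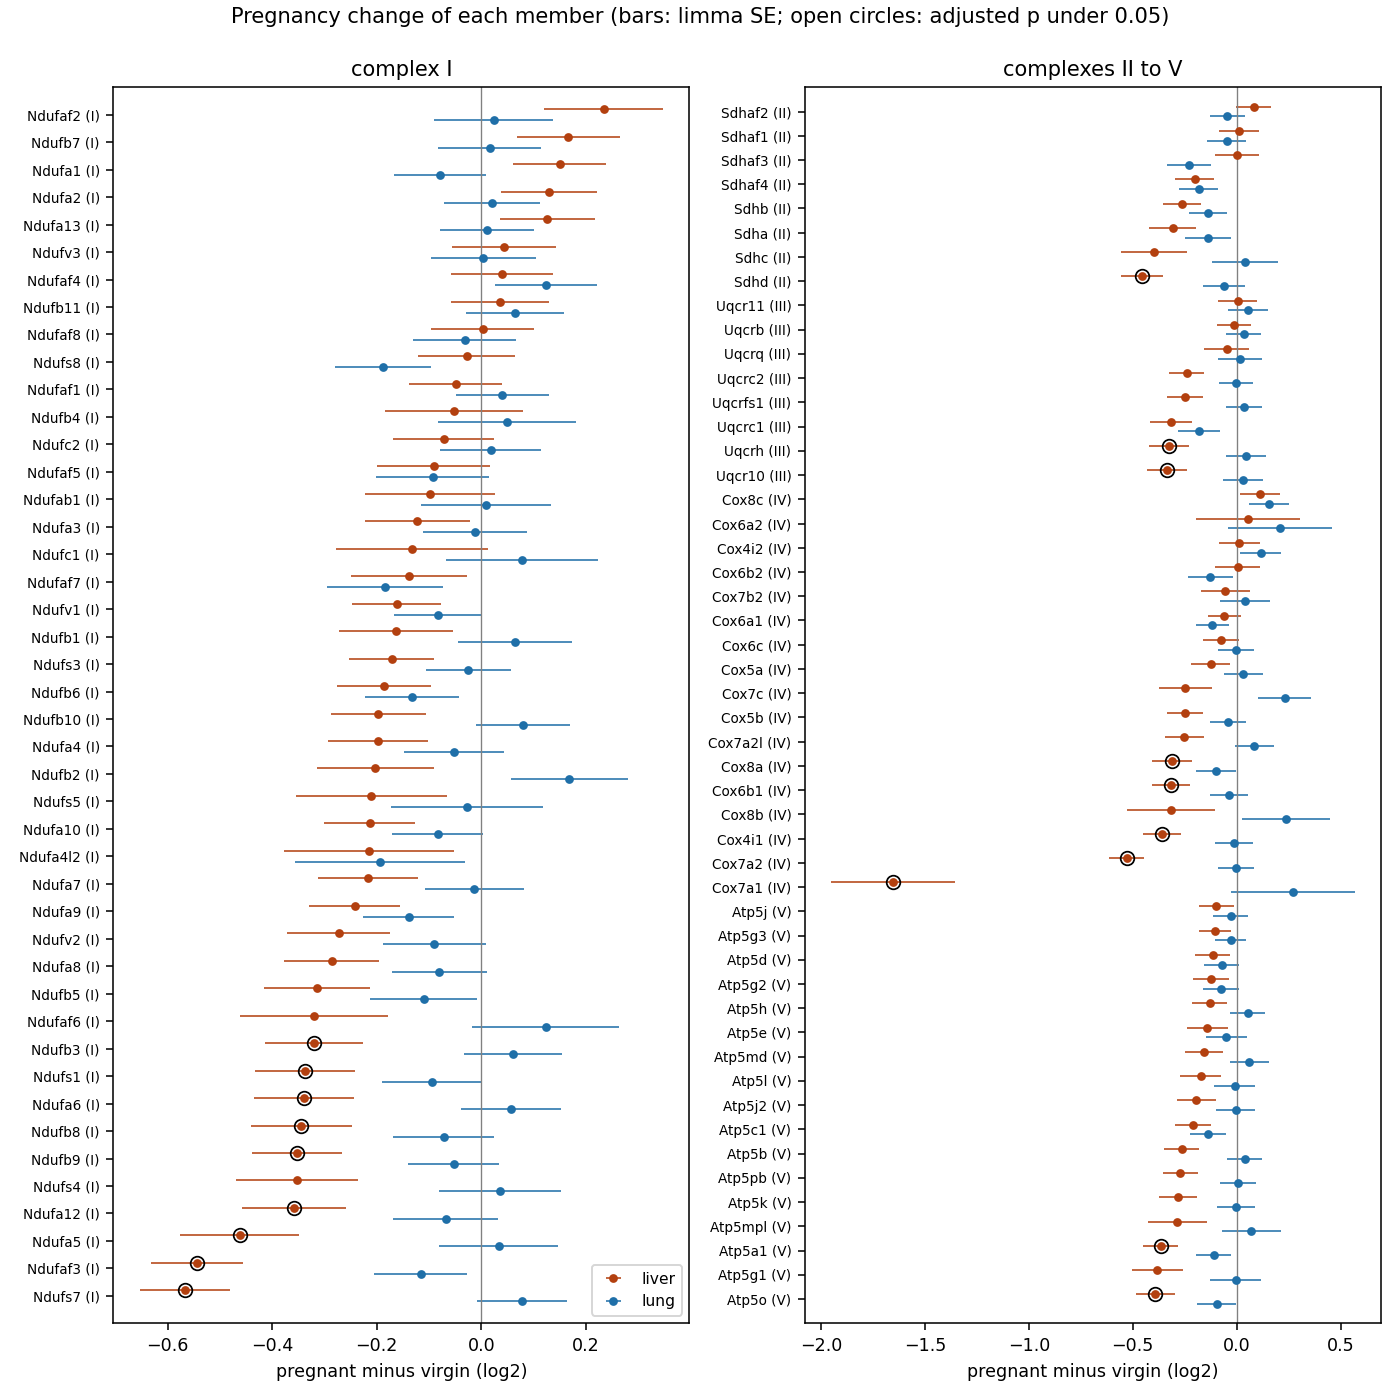
Pregnant minus virgin log2 change of each of the 94 genes in liver and in lung, with the SE of the limma fit as bars and the complex in brackets; the horizontal scales of both panels differ. Open circles mark the 19 genes that fell in liver; no lung value is circled.

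**Figure D3:**
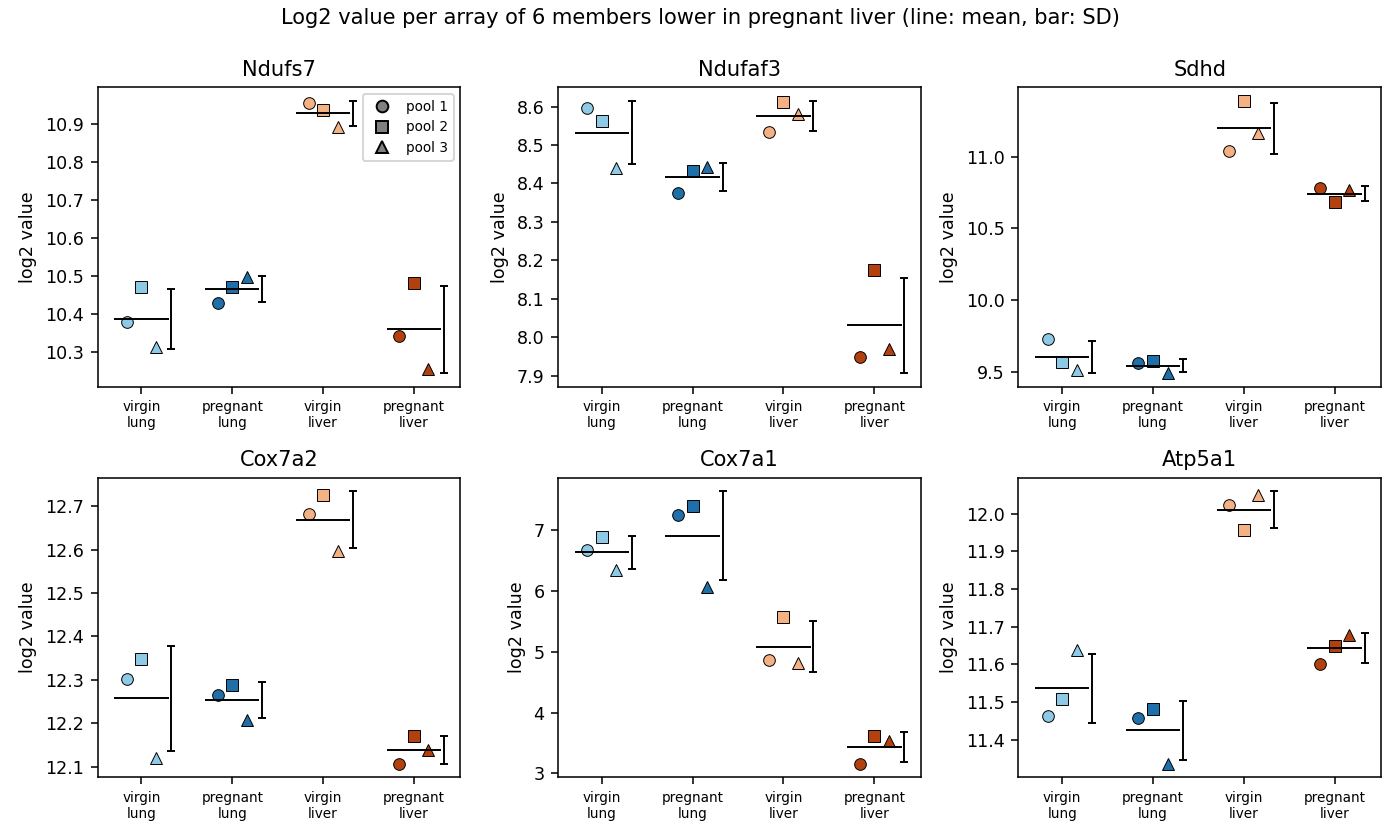
Log2 values on each array of 6 genes that fell in pregnant liver, with the group mean (line) and SD (bar) of 3 pools; vertical axes differ. For each gene all 3 pregnant liver pools lie below all 3 virgin liver pools.

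Cox7a1, Cox7a2, Ndufaf3, Ndufs7 and Sdhd stayed called in liver under all 25 alternatives that gave a value for a single gene, and with Atp5a1 they were the 6 genes called in all 12 fits without 1 array. Each of the other 13 calls was lost in at least 1 of those fits, with an adjusted p of at most 0.171 (Cox8a without virgin liver pool 2). Further probe sets were available for 13 of the 19 genes. Of these 19 further probe sets 18 were below 0, 7 were called lower and 0 were called higher. Of all 185 probe sets of the respiratory genes 158 were below 0 and 30 were called lower. Over all probe sets on the array 5.54% were called lower and 9.99% in either direction. The further probe sets were read on the same arrays that selected the 19 genes, so they are not an independent check.

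In lung, pregnancy changed none of the 94 genes past the threshold: 0 were called in limma, against 0.594% of all genes, and 1 had an unadjusted p under 0.05. The median change was -0.01, the largest in size was 0.27 (Cox7a1), and the smallest adjusted p was 0.503. The 95% interval of the change lay within 0.5 log2 units of 0 for 89 genes and within 1 unit for all 94. For Ndufs7 the lung values were 10.38, 10.47 and 10.31 (virgin) and 10.43, 10.47 and 10.50 (pregnant), and for Sdhd they were 9.73, 9.57 and 9.51 against 9.56, 9.58 and 9.49. The groups overlapped for both. By complex, the genes with the smallest p were Ndufs8 (-0.19) and Ndufaf7 (-0.18) in complex I, Sdhaf3 (-0.23) and Sdhaf4 (-0.18) in complex II, Uqcrc1 (-0.18) and Uqcr11 (0.05) in complex III, Cox7c (0.23) and Cox8c (0.16) in complex IV, and Atp5c1 (-0.14) and Atp5a1 (-0.11) in complex V.

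Without pregnant lung pool 3, 2 genes were called higher in pregnant lung, Cox6a2 (0.63 ± 0.12 SE, adjusted p = 0.038) and Cox8b (0.58 ± 0.11 SE, adjusted p = 0.043). Both are muscle forms of complex IV subunits. Cox6a2 had log2 values of 8.28, 8.42 and 8.24 in virgin and 8.77, 9.12 and 7.68 in pregnant lung. Cox8b had 7.62, 7.57 and 7.34 against 8.08, 8.10 and 7.05, and Cox7a1 had 6.68, 6.89 and 6.35 against 7.26, 7.40 and 6.07. For all 3 genes pregnant pool 3 was the lowest lung array and pregnant pools 1 and 2 were the highest. Neither Cox6a2 nor Cox8b was called in the fit over all arrays, so both calls depend on leaving out the lowest array.

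Heart muscle markers were also lowest in pregnant lung pool 3 and highest in pregnant pools 1 and 2. The mean log2 value of 10 such markers was 8.38, 8.18 and 7.95 in virgin lung and 8.80, 8.99 and 7.28 in pregnant lung. The atrial light chain Myl7 had 11.17, 10.91 and 10.82 against 11.48, 11.61 and 9.64, and the heart muscle myosin gene Myh6 had 8.72, 8.77 and 8.53 against 9.26, 9.42 and 7.82. In the fit over all arrays 0 of the 10 were called, and 9 were above 0. Without pregnant lung pool 3, the fit in which Cox6a2 and Cox8b were called, all 10 were above 0 and 5 were called higher, while 0.577% of all genes were called. These were Ryr2 (1.18, adjusted p = 0.018), Sln (0.87, 0.0374), Myl4 (0.74, 0.0426), Tnnt2 (0.73, 0.0311) and Myh6 (0.67, 0.0162). Of the fits that left out a single array, only this fit called any respiratory gene in lung. The array it leaves out has the lowest marker mean in lung, which raises the pregnant mean and narrows its spread. The marker calls are therefore not a separate test of a rise in pregnant lung. Skeletal muscle markers stayed low in lung, with a mean log2 value between 4.03 and 4.42. The part of heart muscle RNA in the lung values of Cox6a2, Cox7a1 and Cox8b was not tested.

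**Figure D4:**
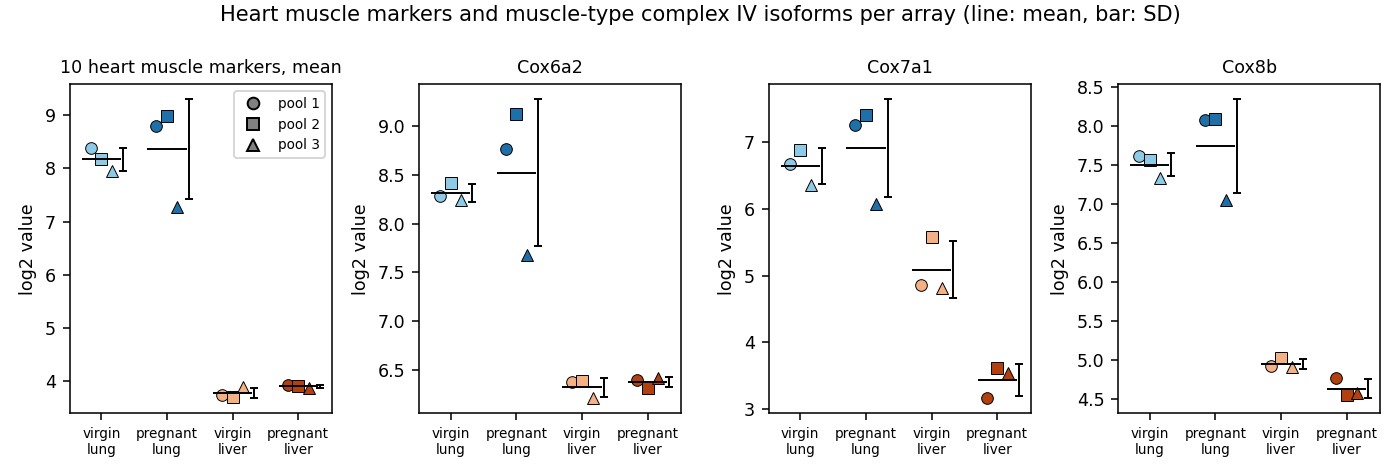
Mean log2 value of 10 heart muscle markers and log2 values of Cox6a2, Cox7a1 and Cox8b on each array, with group mean (line) and SD (bar) of 3 pools; vertical axes differ. In lung, pregnant pool 3 has the lowest value in all 4 panels and pregnant pools 1 and 2 the highest.

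The difference between the pregnancy changes of both tissues was tested as an interaction. It was called for 3 of the 94 genes, all with the higher change in lung, against 6.71% of all genes in either direction and 3.34% in that direction. Ndufs7 changed by 0.08 in lung and -0.57 in liver, a difference of 0.65 ± 0.12 (SE, adjusted p = 0.00564). Cox7a2 changed by 0.00 and -0.53, a difference of 0.53 ± 0.12 (SE, adjusted p = 0.018), and that call was lost when the probe sets of a gene were averaged (0.40, adjusted p = 0.0705). Cox7a1 changed by 0.27 and -1.65, a difference of 1.93 ± 0.42 (SE, adjusted p = 0.013). For the other 16 genes that fell in liver the difference from lung was not called, so a liver-specific fall is not shown for them. Sdhd differed by 0.39 (adjusted p = 0.128) and Ndufaf3 by 0.43 (0.0583).

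Virgin liver had higher values than virgin lung for most of the genes. Of the 94 genes 80 were higher in liver and 6 lower, while 34.4% of all genes were higher and 34.3% lower. The median difference (log2, liver minus lung) was 0.96 for complex I, 1.22 for complex II, 1.22 for complex III, 0.23 for complex IV and 0.65 for complex V, and 0.07 for all genes. All 8 genes of complex III and all 17 of ATP synthase were called higher in liver by their chosen probe sets. A second probe set of Atp5h, of nearly the same brightness, was not called (0.20, adjusted p = 0.114 among all probe sets). This comparison rests on how arrays of both tissues were scaled to each other, which the sources used here do not give. Quantile normalization over all arrays gave 78 higher and 7 lower.

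The genes with the largest excess in liver came from several complexes. Ndufaf6, an assembly factor of complex I, had 7.64, 7.93 and 7.61 in virgin liver and 5.61, 5.60 and 5.18 in virgin lung, a 4.80-fold difference (adjusted p = 2.48e-09). Atp5g1 had 11.34, 11.54 and 11.40 in liver and 9.53, 9.49 and 9.18 in lung, a 4.08-fold difference (adjusted p = 1.97e-09). The other ring genes were higher by less, Atp5g2 by 0.47 and Atp5g3 by 0.59 on the log2 scale. Ndufaf1, another assembly factor, was higher by 1.89, Uqcrq and Uqcr11 of complex III by 1.73 and 1.61, Uqcrfs1 by 1.60, Sdhd by 1.59, Ndufv3 by 1.49, Sdhc by 1.41 and Sdhaf3 by 1.40. The core subunits of complex I were higher by 0.54 (Ndufs7) to 1.23 (Ndufv1).

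The 6 genes with lower values in virgin liver were 5 tissue-restricted isoforms of complex IV and Ndufa4l2. Cox6b2, the testis form of subunit VIb, had 8.31, 8.24 and 8.00 in lung and 4.89, 5.20 and 4.89 in liver, 9.12-fold higher in lung (adjusted p = 3.06e-12). The muscle forms Cox8b, Cox6a2 and Cox7a1 were 5.90-fold, 3.98-fold and 2.93-fold higher in lung. The 10 heart muscle markers had a mean log2 value of 8.17 in virgin lung and 3.78 in virgin liver, 8 of them were called lower in liver, and their median difference was -5.50. The part of heart muscle RNA in these tissue differences was not tested. Cox4i2, the form of subunit IV known from lung, had 6.32, 6.21 and 6.41 in lung and 4.67, 4.58 and 4.56 in liver, 3.27-fold higher in lung (adjusted p = 9.72e-10). Ndufa4l2, a gene induced by low oxygen, was 4.03-fold higher in lung. Their widely expressed partners went the other way, with Cox6b1 higher in liver by 0.50, Cox8a by 0.48, Cox6a1 by 0.78, Cox7a2 by 0.41, Cox4i1 by 0.52 and Ndufa4 by 0.62. Cox8c, a further isoform, was higher in liver by 0.82, and Cox7b2 lay below the median of all probe sets in every group and was not called.

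In the pregnant state 75 of the 94 genes were higher in liver and 9 lower, against 37.2% and 34.4% of all genes. The virgin and pregnant tissue comparisons share no array. Of the 94 genes 80 were called in the same direction in both, 74 higher and 6 lower in liver, and 0 were called in opposite directions. Across the 94 genes the tissue differences of both states had a Pearson r of 0.963 and a Spearman rho of 0.945, against a Pearson r of 0.973 over all genes; genes are not independent replicates, and the level of each gene is shared. The value of liver minus lung was lower in the pregnant state for 79 of 94 genes. Ndufs7, Cox7a2, Cox4i1, Cox6c, Uqcrh and Ndufb3 were called higher in liver in the virgin comparison and were not called in the pregnant one, where they differed by -0.11, -0.12, 0.18, 0.16, 0.04 and 0.00. Of these 6, Ndufs7 and Cox7a2 passed the interaction test, which compares both differences. Ndufaf3 (-0.39), Cox7a2l (-0.44), a factor that joins complexes III and IV, and Cox7c (-0.44) were lower in liver in the pregnant comparison. Cox7c was read by a dim probe set near the median of all probe sets.

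**Figure D5:**
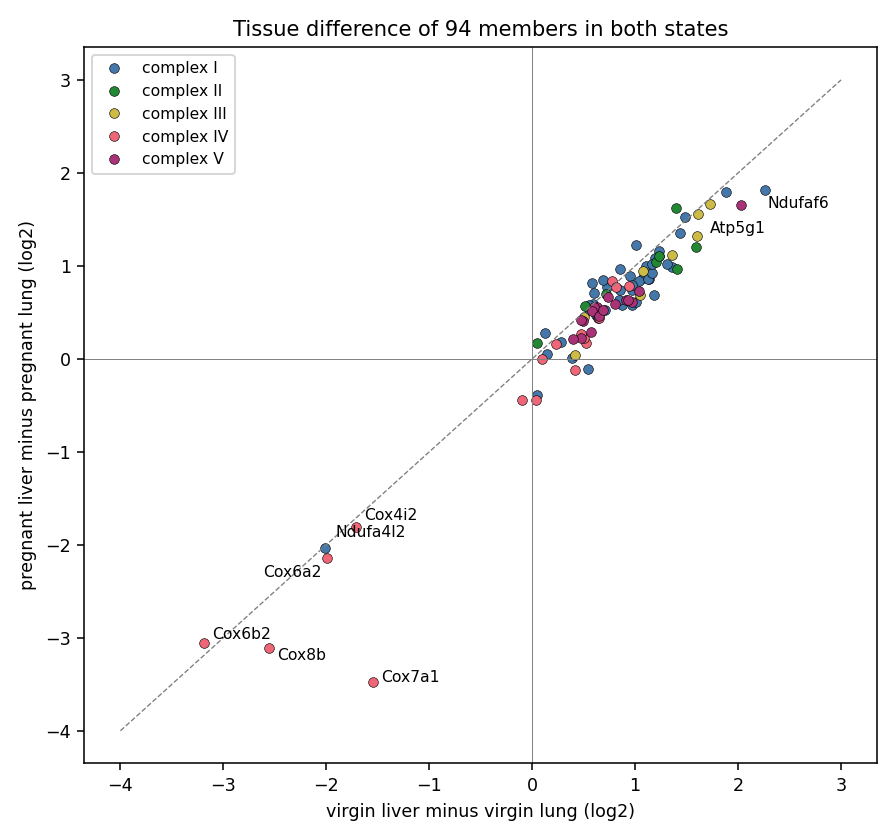
Liver minus lung log2 difference of each of the 94 genes in the virgin state (horizontal axis) and the pregnant state (vertical axis), coloured by complex, with the line of equal values dashed. Most points lie above 0 on both axes and somewhat below the line, while Cox6b2, Cox8b, Cox6a2, Cox7a1, Cox4i2 and Ndufa4l2 lie below 0 on both.

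Other mitochondrial genes were read from lists chosen by function. Their counts stand beside the 7.62% of all genes that fell and the 6.02% that rose in liver. In pregnant liver, 8 of 18 citric acid cycle genes (44.4%) fell and 1 rose, with a median change of -0.28. Dlat, a subunit of pyruvate dehydrogenase, changed by -0.67 ± 0.10 (SE, adjusted p = 0.000575) and Cs, citrate synthase, by -0.54 ± 0.11 (SE, adjusted p = 0.00569), while Idh2, the NADP-dependent isocitrate dehydrogenase, rose by 0.55 ± 0.11 (SE, adjusted p = 0.00446). Of 12 genes of coenzyme Q synthesis 2 fell, Coq8a by -1.15 ± 0.11 (SE, adjusted p = 8.03e-06) and Coq7 by -0.36 ± 0.10 (SE, adjusted p = 0.025). Of 13 carrier genes 1 fell (7.69%, near the share of all genes), the outer membrane channel Vdac2 (-0.30), and Cycs, cytochrome c, was at -0.30 (adjusted p = 0.0839).

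For 3 further lists the shares that fell were near the 7.62% of all genes. The shares that rose ranged from 0 to 7.69%, against 6.02% of all genes. Of 76 mitochondrial ribosomal protein genes 5 fell (6.58%) and 0 rose, with a median change of -0.15 and the largest falls in Mrps18a (-0.51), Mrps27 (-0.47) and Mrpl12 (-0.37). Of these 76 genes 59 were below 0 (77.6%, against 51.7% of all genes). In 31 every pregnant pool lay below every virgin pool, against 15.3% of all genes, and in 5 every pregnant pool lay above, against 12.7%. Among 39 assembly factors outside the symbol rule 3 rose (7.69%) and 2 fell (5.13%). Acad9, which also serves complex I assembly, rose by 0.40, Lrpprc, which stabilises mitochondrial mRNA, fell (-0.45), and Lyrm7 rose by 0.53 from a level below the median of all probe sets. Of 33 import genes 1 rose (3.03%) and 2 fell (6.06%): Tomm20l (0.55), also below that median, Timm21 (-0.31) and Grpel1 (-0.30). Of 12 uncoupling and antioxidant genes 4 fell and 0 rose, among them the glutathione peroxidase genes Gpx1 (-0.75, adjusted p = 3.97e-05) and Gpx4 (-0.42), and Aox1, an aldehyde oxidase, which is neither an uncoupler nor an antioxidant (-1.01).

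Regulators of mitochondrial content went in both directions in liver, with 2 of 23 higher and 4 lower. The coactivator gene Pprc1 rose by 0.95 ± 0.15 (SE, adjusted p = 0.000554). Its relative Ppargc1b fell (-0.69 ± 0.10 SE, adjusted p = 0.000363), as did Polg2, the accessory subunit of the mitochondrial DNA polymerase (-0.81 ± 0.12 SE, adjusted p = 0.00028). Of 16 hypoxia response genes 3 rose and 2 fell, with Ldha, lactate dehydrogenase A, at 0.63, Ddit4 at 0.77 and Pdk1, a kinase that restrains pyruvate dehydrogenase, at -0.80. The single mitochondrially encoded gene read by an array probe set with 1 symbol, ND5 of complex I, was at 0.12 (adjusted p = 0.594). In lung the smallest adjusted p over these lists was 0.180 (Suclg2, a subunit of succinyl-CoA ligase), so no gene of them was called in limma.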

How the data were processed

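The values used here, as deposited, are on a log2 scale and come from RMA, per the submitters' processing notes. RMA subtracts background, makes the arrays comparable and reduces the probes of a probe set to 1 value. The affy package is also named there; its version and the set of arrays normalized together are not given in the sources used here. The number of arrays limits the precision.

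After 64 control probe sets were left out, 34945 of 45037 had a single symbol in the platform annotation, and 18193 genes remained. Means of the 4 groups were estimated over all 12 arrays (limma 3.58.1, R 4.3.3), with moderated variances and no filter on dim genes. Adjusted p-values are Benjamini-Hochberg values over all 18193 genes, two-sided, and genes under 0.05 were called. The script was tested on simulated data.

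Members and gene lists were chosen with earlier results of these data known. Per pregnancy contrast and complex, up to 4 called genes with the largest rise and fall were named (or, with no call, the 2 lowest p). Per tissue contrast and complex, the 3 largest in each direction were named. Core subunits, isoform families, called assembly factors and up to 3 called genes of each other list were added. Ndufb9, Ndufb8, Ndufa6, Ndufb3, Uqcrh, Cox6c, Cox7a2l, Atp5pb and Atp5h, where named beyond this, were chosen after values were seen. So were single marker genes and the 4 promoters. Probe sets with several symbols were left out, and genes with no other probe set were not analysed here. Alternatives are given in the closing section.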

Additional observations from a re-analysis of the deposited data

Results flagged for a closer look

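For 3 genes the pregnancy change differed between lung and liver by the interaction test in limma. They are 3.19% of the 94 genes, while 6.71% of all genes were called in either direction and 3.34% in the same one. Cox7a1, the muscle form of a complex IV subunit, differed by 1.93 (log2, lung change minus liver change), with all 3 pregnant liver pools below all 3 virgin liver pools and overlapping groups in lung. Ndufs7, a core subunit of complex I, differed by 0.65, and Cox7a2, the widely expressed counterpart of Cox7a1, by 0.53, again with separate groups in liver and overlapping groups in lung.

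A probe set annotated to both Yjefn3 and Ndufa13 was left out of the comparisons because of its second symbol. Its log2 value was 5.17 in virgin and 5.70 in pregnant liver, a change of 0.53 ± 0.13 (SE, adjusted p = 0.0203 among all probe sets), and 4.98 and 4.95 in virgin and pregnant lung. The probe set that stood for Ndufa13 changed by 0.13 in liver (adjusted p = 0.419).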

How the results depend on the processing

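The count of genes called in liver, 19, was 7 with only the 6 liver arrays in the fit, 31 without dim genes, 31 of 185 when every probe set was tested on its own (1 higher and 30 lower), 12 with quantile normalization over all arrays, 36 with a variance trend and robust moderation, and 5 at an adjusted p under 0.01. The share of all genes called in either direction was 8.56%, 21.2%, 9.99%, 13.7%, 15.5% and 7.26% in these fits, against 7.45%, 34.1%, 16.8%, 12.8%, 38.3% and 5.32% of the respiratory genes or probe sets; the share of all genes called lower was 4.77%, 12.4%, 5.54%, 7.06%, 9% and 4.06%. The count ranged from 7 to 24 when 1 array was left out. In lung it ranged from 0 to 2. The count for the difference between tissues, 3, was 5 with every probe set, 12 with a variance trend and robust moderation and 1 at an adjusted p under 0.01, and ranged from 3 to 4 without 1 array. With every probe set tested, 155 of 185 were called between virgin tissues and 149 between pregnant tissues; without 1 array the gene counts ranged from 85 to 87 and from 80 to 84. Of 192 calls over the 5 comparisons 3 took the other sign under an alternative with 1 value a gene, all with probe sets ending in _s_at or _x_at left out, which leaves Ndufa12 and Atp5c1 to dim probe sets (mean log2 2.74 and 5.10). Liver minus lung then was -0.12 (virgin) and -0.33 (pregnant) for Ndufa12 and -0.17 (pregnant) for Atp5c1, against called values of 0.87, 0.58 and 0.56. The causes of these shifts were not tested, apart from the number of genes or arrays that an alternative itself changes.

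Of 79 named tissue calls 75 were kept under every alternative; Atp5a1, Cox6b1 and Cox8a in the pregnant comparison and Atp5g2 in the virgin one were not. Treating both liver arrays of pool 3 as a block gave 22 liver calls, and leaving them out gave 16. With dim probe sets such as those of Cox7a1 in pregnant liver, Cox7b2 and Cox7c, signal near background limits what can be read.

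With the pool number as a replicate block, 16 genes were called in liver, 0 in lung, 3 for the difference, 86 between virgin and 84 between pregnant tissues. Same-numbered virgin and pregnant pools deviated from their group means with correlations of 0.108, -0.110 and 0.092 in liver and -0.006, 0.016 and 0.096 in lung. For lung and liver pools of the same number the correlations were -0.037, 0.059 and 0.106 (virgin) and 0.019, -0.021 and 0.018 (pregnant). The numbers were not taken to pair the samples. These values do not settle whether lung and liver pools came from the same animals.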

Other observations

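Several subunits had bright values only in probe sets that the annotation gives to more than 1 gene, mostly a gene and a near-identical copy. In these the change in pregnant liver was -0.26 for Ndufs6 with Ndufs6b (adjusted p = 0.102 among all probe sets), -0.17 and -0.11 for both bright probe sets of Ndufb4 with Ndufb4b and Ndufb4c, and 0.04 for the brighter one of Ndufa11 with Ndufa11b. All 4 had higher values in virgin liver than in virgin lung, by 1.21, 0.64, 0.80 and 0.64 (log2). Ndufb4 itself stood among the 94 genes with a probe set below the median of all probe sets in every group, so its own value there says little about the gene.

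Ndufb7, an accessory subunit of complex I, had a second bright probe set that was called higher in pregnant liver (0.39 ± 0.11 SE, adjusted p = 0.0373 among all probe sets), while its chosen probe set gave 0.17 (adjusted p = 0.371 among all probe sets). It was the 1 probe set of the 185 that was called higher.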
